A study of Bos taurus with 6 samples.

Results

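Bovine primordial follicles (PMF), the resting follicles of the ovary in which an oocyte is enclosed by flattened pre-granulosa cells, were examined for 37 genes of the cell cycle and of DNA replication. The genes were taken as a fixed list of cyclins, cyclin-dependent kinases, E2F factors, replication proteins and mitotic proteins, by name and with no threshold on a level or a fold change. Of the 37 genes, 36 had at least 1 transcript in the libraries and all 36 passed the filter on low counts, out of 23704 genes measured and 14639 tested. For MKI67, the gene of the proliferation antigen Ki-67, none of the 3 transcripts that RefSeq now lists was among the quantified ones, and no value is given for it.

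The libraries were pools of PMF isolated mechanically from the ovarian cortex of young Holstein Friesian cows. The T0 group held 3 libraries of follicles retrieved after collection, which by the study's methods followed a short recovery in medium with insulin, transferrin, selenium and FSH. The T16 group held 3 libraries of follicles retrieved after 16 h of culture, and the sources used here do not describe the culture medium. No genetic change, and no treatment other than the culture, is given for either group. Every library mixed oocytes with somatic cells, so fewer cells of a type and less RNA per cell cannot be told apart. The labels call the pools biological replicates without tying them to animals, so p-values measure the spread between pools.

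A dividing cell passes from G1 into S phase when D-type cyclins with CDK4 or CDK6, and then E-type cyclins with CDK2, release E2F factors to switch on the replication genes. The MCM complex is loaded onto origins by CDC6 and CDT1 and is started by the DBF4-dependent kinase, and mitosis is driven by B-type cyclins with CDK1 and by the Aurora and Polo kinases. The PMF oocyte is arrested in prophase of the first meiotic division, its pre-granulosa cells rarely divide, and oocytes are known to store transcripts of several mitotic genes for later meiosis.

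Total estimated counts ranged from 22174653 to 36703016 per library, and 89.1% to 90.3% of them fell on genes with a name. The cell make-up, as read from marker genes, differed between pools. The 20 oocyte markers summed to 588, 2344 and 3265 TPM (abundance scaled for transcript length and for the total of the library) in T0 replicates 1, 2 and 3 and to 2342, 90.2 and 844 TPM in T16 replicates 1, 2 and 3. T0 replicate 1 and T16 replicate 2 thus held the least oocyte transcript of their groups. BMP15, an oocyte growth factor, had 36.7, 173 and 204 TPM at T0 and 224, 0.533 and 53.4 TPM at T16. Its partner GDF9 had 2.28, 51.1 and 50.7 TPM at T0 and 85.6, 1.34 and 24.6 TPM at T16. In T16 replicate 2 both of these defining oocyte markers of the labelled follicles were thus nearly absent, and GDF9 was also low in T0 replicate 1. FOXL2, the granulosa factor, was detected in all 6 libraries, with 38.5, 141 and 37.3 TPM at T0 and 3.37, 20.1 and 15.1 TPM at T16. The 13 granulosa markers were highest in T0 replicate 2 and T16 replicate 2 (from 601 to 1762 TPM over the 6). The 10 stroma markers summed to 288 TPM in T16 replicate 1, the lowest, and to 2519 TPM in T0 replicate 1, the highest. The smooth muscle and pericyte markers summed to 454, 358 and 126 TPM at T0 and 50.5, 122 and 75.7 TPM at T16, lower in every T16 library, and all 8 tested had a negative log2 fold change (median -1.85). Their part in the differences between T16 and T0 was not tested. The markers of other cells summed to 23.6 to 393 TPM for endothelium and 4.18 to 58.5 TPM for immune cells. In T16 replicate 1 the smooth muscle genes ACTA2 and MYH11 had 0 counts, as the immune gene CD163 had in every library.

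None of the 36 genes was called different between T16 and T0. At a false discovery rate (FDR, Benjamini-Hochberg over all tested genes) below 0.05, edgeR's quasi-likelihood test called 0 members in either direction, where it called 6 genes in all, 0.041% of those tested (0.0342% higher and 0.00683% lower). DESeq2 also called 0 members, where it called 7.02% of the genes tested (4.06% higher and 2.96% lower). At an unadjusted p under 0.05, edgeR gave 1 member higher and 2 lower, against 8.61% and 5.14% of all genes (13.8% in either direction). DESeq2 gave the same counts of members, for which no share over all genes is given. The lowest adjusted p of any member was 0.316 by edgeR and 0.163 by DESeq2. The median log2 fold change of T16 over T0 was -0.18 over the 36 genes and -0.08 over all genes tested. Of the 36 values 22 were negative, as were 7822 of the 14639 over all genes tested.

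For most members, as for most genes tested, the pools of one group differed more than the groups did. For 33 of the 36 genes (91.7%), the range between the libraries within T0 or within T16 was larger than the fold change between the groups, as it was for 85.3% of all genes tested. The measure takes the wider of the ranges within T0 and within T16, which favours this outcome. The median range within a group, on the log2 CPM scale (counts scaled to the library total, with 0.1 added), was 1.12 at T0 and 1.17 at T16 over the members, beside a median absolute fold change of 0.32 log2 units. Over all genes tested the median ranges were 1.11 at T0 and 1.40 at T16, and the median absolute fold change was 0.63. The exceptions among the members were CDK6, MCM4 and CCNB2, the 3 genes whose T16 libraries all lay on one side of the T0 libraries by CPM (8.33% of the members, against 23.8% of all genes). CDK6 lay above, as 13.2% of all genes did, and MCM4 and CCNB2 below, as 10.6% did. A missed threshold does not show that the levels were equal. BUB3 was the single member whose 95% interval stayed within a 2-fold change in both directions, and the intervals of the other 35 reached past it.

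**Figure D1:**
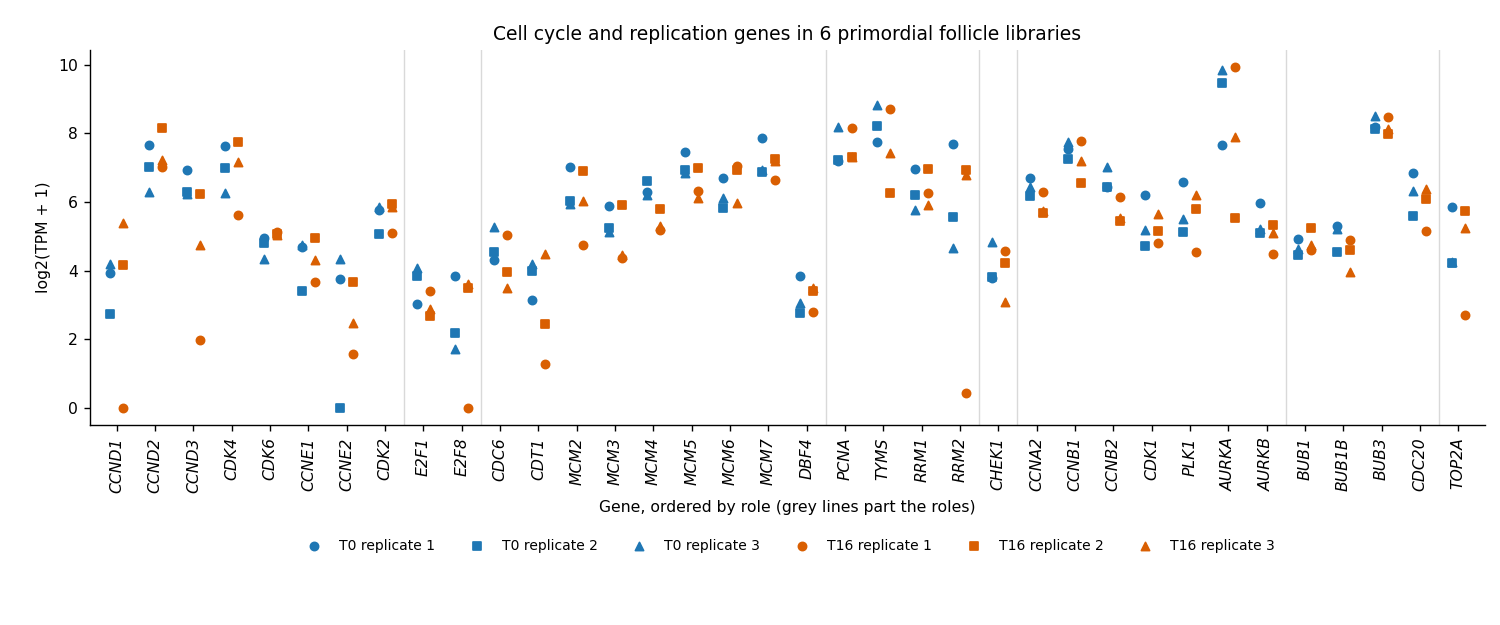
Level of the 36 measured genes in each library as log2(TPM + 1), ordered by role and parted by grey lines; blue points are the 3 T0 libraries and orange points the 3 T16 libraries. The groups overlap for most genes, AURKA reaches the highest values, and the points at 0 are CCND1 and E2F8 in T16 replicate 1 and CCNE2 in T0 replicate 2.

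**Figure D2:**
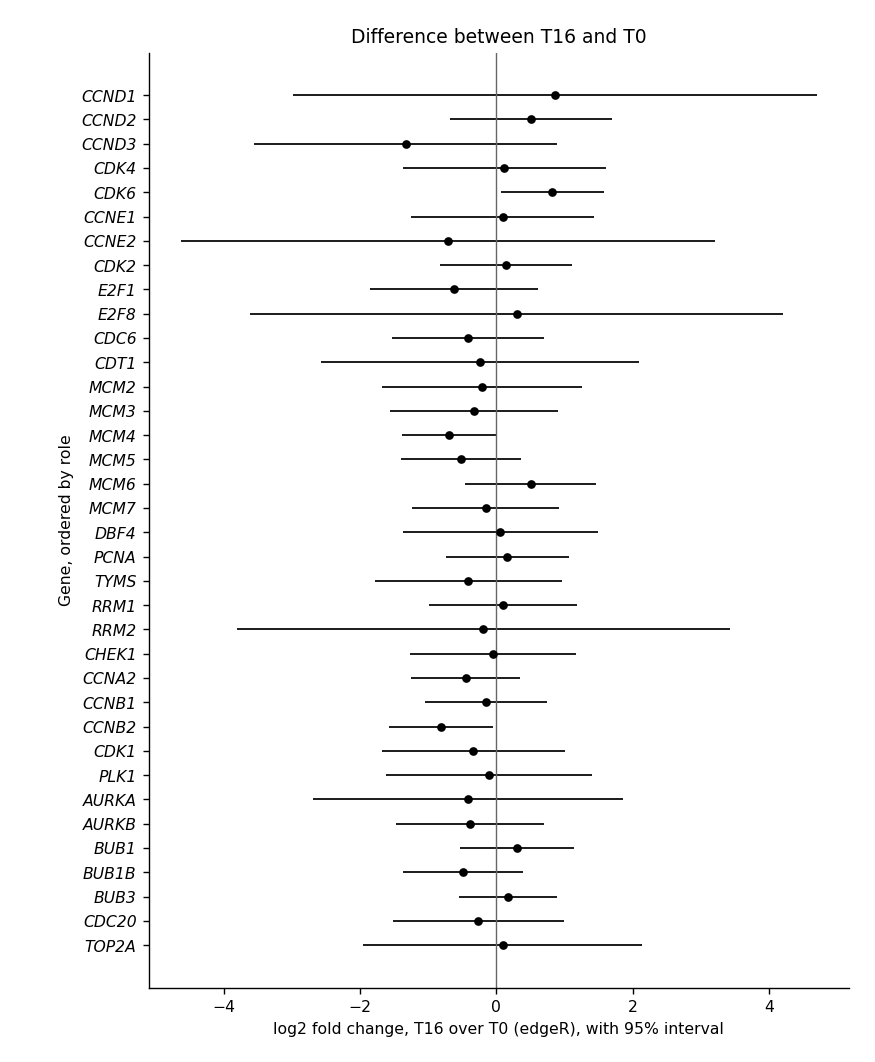
The log2 fold change of T16 over T0 for each gene (points) with its 95% interval (lines) from the edgeR fit. The intervals of CDK6, MCM4 and CCNB2 exclude 0 before adjustment over all genes, and CCND1, CCNE2, E2F8 and RRM2 have the widest intervals.

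Among the D-type cyclins, which couple growth signals to G1, CCND2 was the most abundant in every library. CCND2 had 203, 129.6 and 78.0 TPM in T0 replicates 1, 2 and 3 and 130.0, 285 and 148 TPM in T16 replicates 1, 2 and 3. CCND3 had 120.0, 78.0 and 74.4 TPM at T0 and 2.98, 73.5 and 26.1 TPM at T16. CCND1 had 14.2, 5.70 and 17.3 TPM at T0 and 0, 17.0 and 40.6 TPM at T16. All T16 values of CCND3 lay below all T0 values in TPM, though 1 pair of them by little, and they overlapped on the CPM scale used for the test (log2 fold change -1.33, SE 0.95, edgeR adjusted p = 0.619). The log2 fold change of CCND3 was -0.83 without T16 replicate 1, -2.37 without T16 replicate 2 and -2.70 with the oocyte marker level as a covariate, with 0 calls in each. CCND2 and CCND1 overlapped between the groups on both scales. The matched transcript of CCND1 had 0 counts in T16 replicate 1, and 3 counts there equal 0.116 CPM, used here as a rough upper limit from counting error alone.

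The shares of CCND2 and CCND3 among the D-type cyclins did not overlap between the groups. CCND2 held 60.2, 60.8 and 46.0% of the TPM summed over CCND1, CCND2 and CCND3 over T0 and 97.8, 75.9 and 68.9% over T16. The share of CCND3 was 35.6, 36.6 and 43.9% at T0 and 2.24, 19.6 and 12.2% at T16. The share of CCND2 was thus higher and that of CCND3 lower in each T16 library, and the mean share of CCND3 went from 38.7% (SD 4.53, n = 3) to 11.3% (SD 8.69, n = 3). With 3 against 3 libraries, the two-sided exact permutation test cannot go below p = 0.1, which both shares reached, and the p adjusted over the 11 shares compared was 0.367. Without any 1 library the share of CCND3 still differed by -31.5 to -22.8 percentage points (T16 minus T0).

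CDK6, a partner kinase of the D-type cyclins, was the one member with every T16 library above every T0 library. It had 30.1, 27.2 and 19.2 TPM at T0 and 33.8, 32.4 and 31.6 TPM at T16. The highest T0 library lay within 2 TPM of the lowest T16 library. The log2 fold change was 0.82 (SE 0.32, edgeR adjusted p = 0.316), from 0.60 to 0.98 with 1 library left out. With transcript length offsets it was 0.39, and the unadjusted p no longer passed 0.05. Its paralog CDK4 was more abundant and more variable, with 198, 126 and 76.3 TPM at T0 and 48.0, 212 and 144 TPM at T16. Within both groups CDK4 was lowest where the oocyte markers were highest, and its log2 fold change was 0.12 (SE 0.63).

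The genes of the G1/S step proper overlapped between the groups and had close means or wide intervals. CDK2, the partner of the E- and A-type cyclins, averaged 47.6 TPM (SD 13.2, n = 3) at T0 and 49.9 TPM (SD 14.4, n = 3) at T16. CCNE1 averaged 20.1 and 20.2 TPM, and its values ran from 9.60 to 30.0 TPM over the 6 libraries. CCNE2 had 12.6, 0 and 19.2 TPM at T0 and 1.96, 11.8 and 4.60 TPM at T16, with 0 counts in T0 replicate 2 (where 3 counts equal 0.111 CPM). Its interval therefore ran from -4.64 to 3.21 in log2 units and allows a large change either way. CCNE1 held at least 57.6% of the E-type cyclin TPM in each library.

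The E2F factors, an activator and a repressor of the replication genes, stood in unlike orders over the pools. E2F1, the activator, had 7.12, 13.4 and 16.0 TPM at T0 and 9.53, 5.46 and 6.44 TPM at T16. E2F8, an atypical repressor that E2F1 itself can induce, had 13.2, 3.51 and 2.32 TPM at T0 and 0, 10.4 and 11.3 TPM at T16. In the pools with the least oocyte transcript, T0 replicate 1 and T16 replicate 2, E2F1 was the lowest of its group. E2F8 exceeded E2F1 in both of these pools and in T16 replicate 3 as well. E2F1 held 35.0, 79.2 and 87.3% of the summed TPM of both at T0, the whole of it in T16 replicate 1 and 34.5 and 36.2% in T16 replicates 2 and 3. Neither gene passed the test (log2 fold change -0.62, SE 0.52, for E2F1 and 0.30, SE 1.67, for E2F8).

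Among the licensing genes, MCM4 was lower in every T16 library than in any T0 library. MCM4, a subunit of the helicase ring, had 76.9, 97.4 and 72.8 TPM at T0 and 35.5, 54.4 and 38.2 TPM at T16. Its log2 fold change was -0.70 (SE 0.30, edgeR adjusted p = 0.360) and stayed between -0.85 and -0.64 with 1 library left out. The other 5 subunits overlapped between the groups, and MCM6 had a positive value. MCM6 had 104, 55.9 and 68.2 TPM at T0 and 133, 121 and 61.3 TPM at T16 (log2 fold change 0.50, SE 0.41, 0.93 without T0 replicate 1 and 0.26 without T0 replicate 2). MCM5 averaged 137 TPM (SD 32.4, n = 3) at T0 and 91.1 TPM (SD 30.2, n = 3) at T16. The remaining values were -0.21 for MCM2, -0.33 for MCM3 and -0.16 for MCM7. With the oocyte marker level as a covariate MCM2 stood at -0.88, MCM3 at -0.97, MCM5 at -0.80 and MCM7 at -0.36, and 0 of them were called.

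The 6 MCM subunits form a ring with a single copy of each, and their transcripts were not equally abundant. In a given library the most abundant subunit had from 2.80 to 7.04 times the TPM of the least abundant one. MCM7 was the highest in 4 of the 6 libraries, and MCM3 was the lowest in 5. One of the 2 transcripts that RefSeq now lists for MCM3 was not among those quantified. The summed TPM of the ring was 773, 491 and 471 at T0 and 391, 630.2 and 399.6 at T16, so T0 replicate 1 stood highest and T16 replicate 1 lowest.

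CDC6, CDT1 and DBF4 had lower mean TPM than each MCM subunit in both groups, though not in each library. CDC6, which recruits the MCM ring to origins, had 18.8, 22.4 and 37.3 TPM at T0 and 32.1, 14.5 and 10.3 TPM at T16. CDT1, its partner in loading, had 7.81, 15.0 and 17.1 TPM at T0 and 1.43, 4.49 and 21.6 TPM at T16. CDT1 thus had its lowest and its highest value of all 6 libraries within T16. Without T16 replicate 3 its log2 fold change was -2.12, against -0.24 with all libraries. DBF4, the activator of the CDC7 kinase, averaged 8.83 TPM (SD 4.03, n = 3) at T0 and 8.62 TPM (SD 2.30, n = 3) at T16.

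Of the genes that serve the fork and the supply of nucleotides, TYMS and PCNA were the most abundant and RRM2 the most variable. TYMS, thymidylate synthase, had 215, 297 and 449.8 TPM at T0 and 420.1, 75.8 and 170.1 TPM at T16. PCNA, the sliding clamp of the polymerases, had 145, 149 and 290.2 TPM at T0 and 287, 156 and 157 TPM at T16. Both were highest in T0 replicate 3 and T16 replicate 1, the pools richest in oocyte markers. RRM2, the subunit of ribonucleotide reductase that is made mainly in S phase, had 205, 46.3 and 24.2 TPM at T0 and 0.365, 122 and 110.1 TPM at T16. RRM1, the large subunit that is present through the cycle, had 123, 73.0 and 52.9 TPM at T0 and 76.1, 124 and 59.2 TPM at T16. RRM2 therefore made up 65.0% of the pair in T16 replicate 3 and 0.477% in T16 replicate 1, where it had 18 counts. The log2 fold change of RRM2 was -0.19 (SE 1.54), 0.41 without T16 replicate 1 and 1.41 without T0 replicate 1. CHEK1, the kinase that halts the cycle when replication stalls, averaged 17.8 TPM (SD 8.59, n = 3) and 16.1 TPM (SD 7.85, n = 3).

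All 7 S and M phase cyclins and kinases had negative log2 fold changes, from -0.81 for CCNB2 to -0.11 for PLK1, and CCNB2 was the one without overlap. The signs of CCNB2 and CCNA2 held whichever library was left out, and those of CCNB1, CDK1, PLK1, AURKA and AURKB turned without at least 1 of them. CCNB2 had 85.1, 85.6 and 129 TPM at T0 and 69.1, 43.0 and 45.7 TPM at T16 (SE of the log2 fold change 0.33, edgeR adjusted p = 0.328). The value stayed between -1.07 and -0.66 with 1 library left out. CCNB1, the other main B-type cyclin, had 184, 152 and 213 TPM at T0 and 217, 92.9 and 147 TPM at T16. CCNB1 overlapped between the groups, and its share of the B-type cyclin TPM was 64.8% (SD 3.17, n = 3) at T0 and 73.5% (SD 4.45, n = 3) at T16. The lowest T16 share and the highest T0 share were both 68.4% after rounding, and the two-sided exact permutation p was 0.1, the smallest possible (0.367 after adjustment over the 11 shares).

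**Figure D3:**
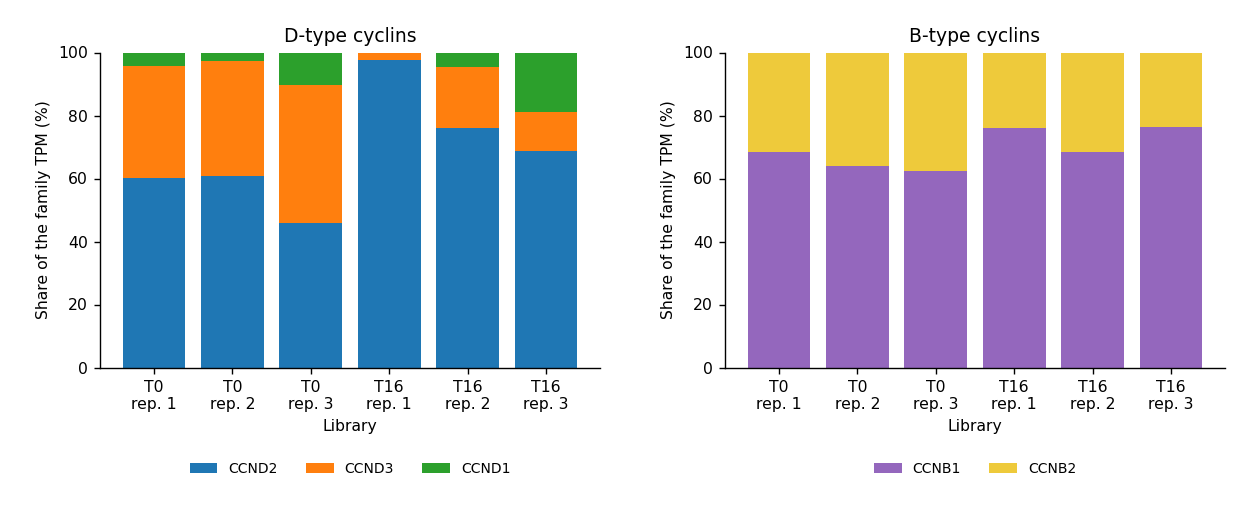
Share of each D-type cyclin (left) and each B-type cyclin (right) in the TPM of its family, in percent, 1 bar per library (rep., replicate). CCND3 takes 35.6% to 43.9% of the D-type cyclins in the T0 libraries and 2.24% to 19.6% in the T16 libraries, and CCNB1 outweighs CCNB2 in all 6.

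CDK1, the kinase of mitotic entry, had 72.9, 25.2 and 35.4 TPM at T0 and 26.7, 34.5 and 49.2 TPM at T16. CCNA2, the cyclin of S and G2 phase, was steadier, with 104, 71.3 and 84.9 TPM at T0 and 77.2, 50.6 and 52.1 TPM at T16. PLK1, the Polo kinase of spindle assembly, had 95.2, 34.2 and 44.8 TPM at T0 and 22.1, 54.7 and 72.8 TPM at T16. CDK1 and PLK1 were highest in T0 replicate 1 at T0 and in T16 replicate 3 at T16, and the groups overlapped. Without T0 replicate 1 their log2 fold changes turned from -0.34 to 0.49 and from -0.11 to 0.61.

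AURKA, the Aurora kinase of the spindle poles, had the highest mean TPM of all 36 members in both groups. It had 201, 705 and 924 TPM at T0 and 975, 45.6 and 235 TPM at T16. T16 thus held both its highest and its lowest library, 21.4 times apart. Its log2 fold change of -0.42 (SE 0.97) was -1.93 without T16 replicate 1. AURKB, the Aurora kinase of the chromosomal passenger complex, was much lower, with 61.2, 33.5 and 36.0 TPM at T0 and 21.6, 39.1 and 33.0 TPM at T16.

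Of the spindle checkpoint genes, BUB3 was both the most abundant and among the steadiest. BUB3, a scaffold that brings BUB1 and BUB1B to kinetochores, had 288, 276 and 364 TPM at T0 and 352, 249.9 and 279 TPM at T16. Its log2 fold change was 0.16 (SE 0.31, 95% interval -0.55 to 0.88). BUB3 held 80.6% to 87.3% of the TPM of the 3 BUB genes in every library. The kinase BUB1 averaged 24.7 TPM (SD 4.33, n = 3) at T0 and 28.6 TPM (SD 7.12, n = 3) at T16, and BUB1B, which encodes the checkpoint protein BUBR1, 32.4 TPM (SD 8.67, n = 3) and 22.2 TPM (SD 7.04, n = 3). CDC20, the activator of the anaphase-promoting complex that the checkpoint holds back, had 113, 47.1 and 78.8 TPM at T0 and 34.6, 67.3 and 81.8 TPM at T16. TOP2A, the topoisomerase that untangles mitotic chromosomes, had 57.0, 17.7 and 18.2 TPM at T0 and 5.56, 52.8 and 36.9 TPM at T16, a spread of 9.50 times within T16.

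The members did not follow a single order from pool to pool. By rising oocyte marker level the T0 libraries stand in the order 1, 2, 3 and the T16 libraries in the order 2, 3, 1. The members and all genes tested were placed by CPM, the scale used for the test, and TPM gave partly other orders. AURKA, TYMS and E2F1 followed this order in both groups, 3 of 36 members (8.33%), where 11% of all genes tested did so. They were also the 3 members that were lowest by CPM in the oocyte-poorest library of both groups, as 22.2% of all genes were. In TPM, PCNA and CCNB2 also stood in the order of the oocyte markers in both groups. BMP15 stood in the same order. The reverse order in both groups was held by 7 of 36 members (19.4%), against 11.5% of all genes. These were MCM2, MCM3, MCM4, MCM5, CCND2, CCND3 and CDK4. In TPM, MCM4 and MCM5 left the reverse order and RRM2 joined it. MCM2 had 127, 63.8 and 60.3 TPM at T0 and 25.9, 118 and 63.7 TPM at T16. Adding TOP2A, BUB1, CCNE1 and RRM1, 11 members (30.6%) were highest by CPM in the oocyte-poorest library of both groups, against 20.6% of all genes. In TPM, MCM4 and CCNE1 were not highest there, while RRM2, MCM7 and AURKB were. These orders were looked at after the values were seen, they describe 3 libraries a group, and the part of the cell make-up in them was not tested.

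**Figure D4:**
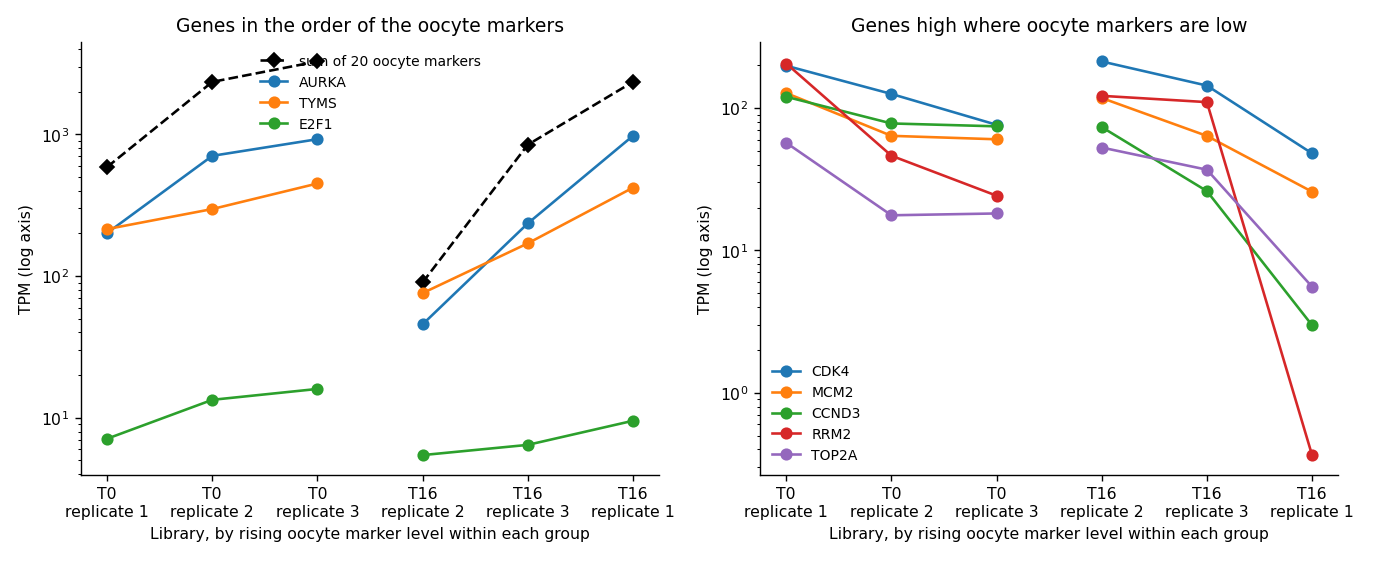
TPM (log axes) in the 6 libraries, arranged within each group by rising oocyte marker level; lines join the libraries of a group. AURKA, TYMS and E2F1 climb with the summed oocyte markers (left), while CDK4, MCM2 and CCND3 descend (right), and RRM2 and TOP2A drop lowest in T16 replicate 1.

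Single libraries stood out for the list as a whole. By CPM, T0 replicate 1 was the highest of the 6 libraries for 19 of the 36 members (52.8%) and the lowest for 0. It was highest for 18.5% of all genes tested. In TPM it was the highest for fewer members, and it was the lowest for PCNA (145 TPM). T16 replicate 1 was the lowest by CPM for 15 members (41.7%), against 24.7% of all genes. It held the 0 counts of CCND1 and E2F8 and the lowest values of RRM2 and TOP2A. T0 replicate 1 also held the most stroma marker transcript and T16 replicate 1 the least in the marker sums, and the part of stromal cells in the members' levels was not tested. Without T0 replicate 1 the median log2 fold change of the members was 0.23, without T0 replicate 2 it was -0.42 and without T16 replicate 1 it was 0.01. With both oocyte-poor libraries left out (T0 replicate 1 and T16 replicate 2) it was 0.22, 0 members were called, and 20 of the 36 values were positive. Of the 36 members, 13 kept their sign whichever library was left out. Those with a negative value were CCNB2, BUB1B, CCNA2, MCM4, MCM5, E2F1, CCNE2, CCND3 and CDC6, and those with a positive value were BUB1, MCM6, CCND2 and CDK6.

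The rest of the cycle machinery was examined in 4 lists, and genes without overlap between the groups were counted by CPM. Of 40 other replication genes, edgeR called 0, and 4 lay above and 6 below all T0 libraries (25.0%, against the same 23.8% of all genes); the median log2 fold change was -0.37. UHRF1, which carries DNA methylation over to new strands, had 64.9, 60.3 and 67.0 TPM at T0 and 26.0, 30.4 and 29.0 TPM at T16. The log2 fold change of UHRF1 was -1.05 (SE 0.29, edgeR adjusted p = 0.169), and DESeq2 called it lower (adjusted p = 0.0167). ORC4, a subunit of the origin recognition complex, had 44.5, 56.2 and 89.3 TPM at T0 and 207, 98.7 and 140.4 TPM at T16 (log2 fold change 1.33, edgeR adjusted p = 0.200).

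Of 39 other mitotic genes, edgeR and DESeq2 called 0, and 1 gene (2.56%, against 23.8% of all genes) did not overlap between the groups by CPM. This was CENPF, a kinetochore protein, with 19.0, 10.3 and 17.4 TPM at T0 and 9.17, 8.08 and 4.67 TPM at T16. KIF20A, a kinesin of the central spindle, had 90.3, 44.5 and 60.7 TPM at T0 and 29.7, 38.0 and 36.1 TPM at T16. Its T16 values lay below all T0 values in TPM but overlapped with them by CPM. FOXM1 and MYBL2, the factors that switch on the late cell cycle genes, overlapped between the groups. FOXM1 averaged 4.93 TPM (SD 0.548, n = 3) at T0 and 4.03 TPM (SD 1.78, n = 3) at T16, and MYBL2 35.3 TPM (SD 24.8, n = 3) and 27.4 TPM (SD 20.6, n = 3). Of 18 genes of the anaphase-promoting complex and its regulators, both tools called 0. By CPM, CDC16 and CDC27 (11.1%, against 13.2% of all genes) lay above all T0 libraries. CDC16 had 52.9, 32.6 and 45.1 TPM at T0 and 102, 83.8 and 67.9 TPM at T16. ANAPC1, the scaffold subunit, had 17.4, 10.6 and 10.1 TPM at T0 and 19.9, 23.4 and 19.9 TPM at T16. The T16 values of ANAPC1 lay above all T0 values in TPM but overlapped with them by CPM.

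Of the 4 lists, that of the inhibitors and the factors that hold genes in quiescence had the largest share without overlap, which was not tested against the others. Of its 22 genes, edgeR called 0, at an unadjusted p under 0.05 it gave 4 higher and 2 lower (against 8.61% and 5.14% of all genes), and 9 did not overlap between the groups (40.9%, against 23.8%). DESeq2 called CDKN2B and E2F4 higher and BTG2 lower, where it called 7.02% of all genes. CDKN2B, an inhibitor of CDK4 and CDK6, had 1.04, 2.66 and 1.12 TPM at T0 and 65.7, 35.5 and 15.6 TPM at T16. Every T16 library of CDKN2B was above every T0 library, with a log2 fold change of 4.67 (SE 0.67, edgeR adjusted p = 0.0872, DESeq2 adjusted p = 2.41e-10). E2F4, a repressive E2F that works with the pocket proteins in resting cells, had 56.6, 56.7 and 50.9 TPM at T0 and 232, 141 and 163 TPM at T16. The log2 fold change of E2F4 was 1.81 (SE 0.32, edgeR adjusted p = 0.0921, DESeq2 adjusted p = 9.74e-05). With 1 library left out it ran from 1.58 to 1.99, and that of CDKN2B from 4.05 to 5.12. The highest edgeR adjusted p with 1 library left out was 0.442 for E2F4 and 0.368 for CDKN2B.

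The p21 and p27 inhibitors had opposite signs. CDKN1A, which encodes p21, had 112, 158 and 601 TPM at T0 and 711, 439 and 784 TPM at T16. T0 replicate 3 overlapped with the T16 libraries (log2 fold change 1.36, SE 0.66, edgeR adjusted p = 0.425). Leaving out T0 replicate 2 gave CDKN1A a value of 0.88, and leaving out T0 replicate 3 one of 2.35. CDKN1B, which encodes p27 and is known to restrain PMF activation in mice, had 5.78, 10.4 and 11.4 TPM at T0 and 2.73, 4.02 and 1.21 TPM at T16. All 3 T16 values of CDKN1B were below all T0 values (log2 fold change -1.70, SE 0.64, edgeR adjusted p = 0.301, DESeq2 adjusted p = 0.0606). BTG2, an antiproliferative gene that is also an immediate early gene, was named after its values were seen. It had 162, 341 and 1175 TPM at T0 and 105, 109.5 and 71.6 TPM at T16 (log2 fold change -2.39, SE 0.67, edgeR adjusted p = 0.175, DESeq2 adjusted p = 0.00761).

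**Figure D5:**
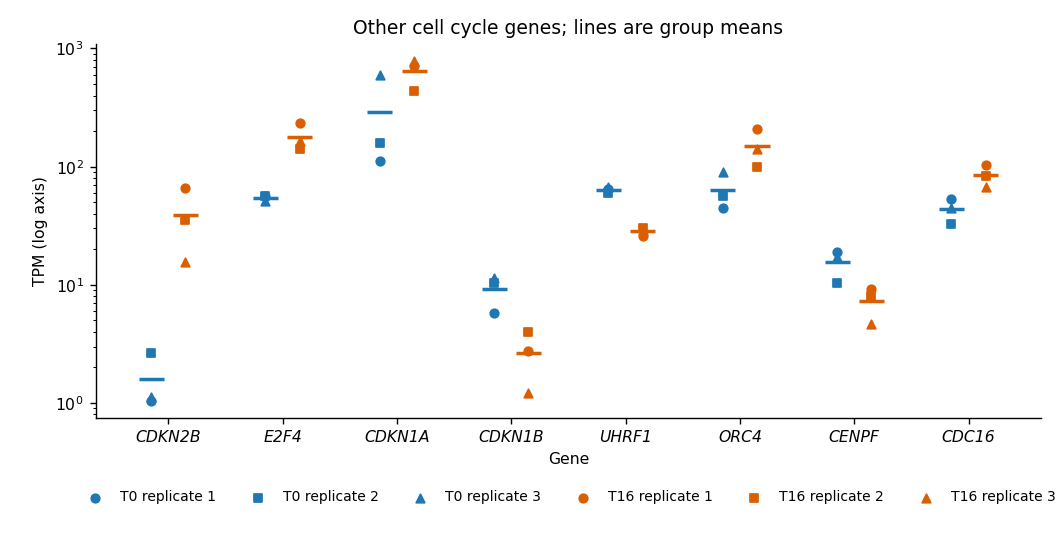
TPM (log axis) of 8 other cell cycle genes in each library; points are libraries and short lines are group means, blue for T0 and orange for T16. CDKN2B, E2F4, ORC4 and CDC16 lie higher in all T16 libraries, CDKN1B, UHRF1 and CENPF lie lower in all of them, and CDKN1A overlaps between the groups.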

How the data were processed

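RNA of pooled bovine PMF (3 T0 and 3 T16 libraries) was amplified with a full-length cDNA kit and sequenced in pairs. Adapters and poor bases were removed by the authors (Trim Galore, fastp), Salmon quantified transcripts of ARS-UCD1.3, and the authors deposited estimated counts and TPM per transcript. Transcripts were matched by accession to the RefSeq gene table of ARS-UCD2.0: 50205 of 76123 (66.0%) matched, carrying 89.1% to 90.3% of the estimated counts, and both units were summed per gene. No coordinates were used.

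Counts were rounded, a gene was kept if 3 or more libraries held 10 counts of it, and T16 was compared with T0 by edgeR's quasi-likelihood test (edgeR 4.0.16, R 4.3.3, TMM scaling), with Benjamini-Hochberg adjustment over all 14639 genes. DESeq2 1.42.0 was an alternative. The scripts were tested on simulated data. Levels are compared between genes in TPM only. Shares within families were compared by exact two-sided permutation tests. Intervals come from the edgeR fit and take in the spread between pools. Floors of 3 counts cover counting error only, and no unique molecular identifiers are given.

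The members, the marker lists and the 4 lists of other cell cycle genes were chosen with earlier results of these data known. All members are named. Of each other list, up to 2 tested genes with the lowest edgeR p are named, with CDKN1A, CDKN1B, FOXM1 and MYBL2, and of the markers GDF9, BMP15 and FOXL2. CDC27, ACTA2, MYH11, CD163 and BTG2 were named after their values were seen.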

Additional observations from a re-analysis of the deposited data

How the results depend on the processing

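The calls over the 36 members stayed at 0 in both directions under every alternative run, in a design where edgeR called few genes of any kind. Over all genes the 5 higher and 1 lower calls became 594 and 433 with DESeq2, 11 and 3 with the oocyte marker level as a covariate, and 0 and 0 with both oocyte-poor libraries left out. The lower calls were 4 without a filter and 2 with a mean CPM of at least 1. With 1 library left out there were 0 to 2 higher and 0 to 1 lower calls. The sources do not say whether the replicate numbers pair the samples. The deviations of same-numbered libraries correlated at -0.445, -0.121 and -0.0047, which cannot settle it with 3 libraries a group that differed in marker levels. A fit with the replicate number as a block gave 0 higher and 0 lower calls. Members with every T16 library above or below all T0 libraries numbered 6 and 6 with both oocyte-poor libraries left out. With 1 library left out they numbered 1 to 5 and 3 to 6. Non-overlap is easier to reach with fewer libraries, and no share over all genes is given for these settings. These counts are therefore not read as a result about the members. With all libraries kept, 3 members in place of 2 lay below with DESeq2 or its size factors. The count below was also 3 without a filter, with a mean CPM of at least 1 and with transcript length offsets. The members' median log2 fold change ran from -0.42 to 0.23 with 1 library left out, and was -0.33 with the covariate, 0.22 without both oocyte-poor libraries and -0.08 with the block.

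Single signs turned, all without a call. With the covariate these were CCNB1 (0.0209), TOP2A (-0.63), AURKA (0.22), E2F8 (-0.31), CCNE1 (-0.28), RRM1 (-0.23), CHEK1 (0.00612), CDK2 (-0.0666), CDK4 (-0.45), DBF4 (-0.13), CDT1 (0.18). With both oocyte-poor libraries left out these were CCNB1 (0.22), CDK1 (0.60), PLK1 (0.61), MCM7 (0.33), CDC20 (0.22), RRM2 (1.07). Transcript length offsets turned BUB3 (-0.0423), and the replicate block turned RRM2 (0.43). With 1 library left out, the sign turned for 23 members, whose log2 fold changes ran over CCNB1 (-0.49 to 0.12), CDK1 (-0.70 to 0.49), TOP2A (-0.36 to 1.06), BUB3 (-0.0249 to 0.30), AURKA (-1.93 to 0.11), AURKB (-0.62 to 0.0732), PLK1 (-0.65 to 0.61), MCM2 (-0.72 to 0.37), MCM3 (-0.96 to 0.0862), MCM7 (-0.40 to 0.38), PCNA (-0.22 to 0.47), CDC20 (-0.68 to 0.22), E2F8 (-0.35 to 1.62), CCNE1 (-0.36 to 0.35), TYMS (-1.24 to 2.51e-05), RRM1 (-0.20 to 0.64), RRM2 (-0.69 to 1.41), CHEK1 (-0.45 to 0.33), CCND1 (-0.55 to 1.35), CDK2 (-0.16 to 0.37), CDK4 (-0.26 to 0.66), DBF4 (-0.23 to 0.63), CDT1 (-2.12 to 0.15). Of members whose sign held, the ranges were CCND2 (0.14 to 1.03), CCNE2 (-1.49 to -0.0611), CDC6 (-1.02 to -0.13), BUB1 (0.11 to 0.56), BUB1B (-0.78 to -0.23), CCNA2 (-0.66 to -0.18), MCM5 (-0.76 to -0.18) and E2F1 (-0.92 to -0.44). The difference in family share (T16 minus T0, percentage points), with 1 library left out, ran over -3.43 to 6.05 for CCND1, -3.76 to 17.4 for CCNE1, -12.6 to 1.43 for CDK4, -19.2 to 13.0 for RRM2, -31.8 to 0.940 for E2F1, 0.129 to 3.18 for BUB1, -1.08 to 2.85 for BUB3, and over 16.8 to 31.2 for CCND2, 7.29 to 11.2 for CCNB1, -31.5 to -22.8 for CCND3 and -3.28 to -1.40 for BUB1B. On estimated counts in place of TPM no share changed sign, and the difference was 32.5 for CCND2, -35.8 for CCND3, -13.6 for CDK4 and -5.26 for BUB1B. The cause of these changes was not tested.

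All 36 measured members passed the count filter, and the 95% intervals of 35 of them reached past a 2-fold change. CCND1, CCNE2 and E2F8 each had a library at 0 counts. MKI67 was not analysed here.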
